A study of Mus musculus with 4 samples.

Results

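The epidermal differentiation complex is a block of chromosome 3 that holds the mouse genes for S100 calcium-binding proteins, small proline-rich (Sprr) proteins, late cornified envelope (Lce) proteins and other parts of the skin barrier. Its members here are all genes with every exon inside 1 fixed window of chromosome 3, which in mm10 runs from S100a1 to Gm37596 (chr3:90511034-93693070). They number 127 of the 50600 genes in the tables. By symbol, 14 were S100 genes, 17 Sprr, 21 Lce, 7 S100-fused genes (Flg, Flg2, Hrnr, Rptn, Crnn, Tchh and Tchhl1) and 8 other envelope or neighbouring epithelial genes (Lor, Ivl, Kprp, Prr9, Lelp1, Smcp, Pglyrp3 and Pglyrp4). The other 60 rows included 23 processed pseudogenes and 13 protein-coding genes. The window was chosen because Sprr counts were high in replicate 2, so values of replicate 2 against replicates 1, 3 and 4 are given as a description: calls in that contrast are counted, with no p-value. Members were tested only within replicates 1, 3 and 4.

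RNA was sequenced from primary T-helper 17 (Th17) cells of C57BL/6NJ mice, a CD4+ T cell subset defined by interleukin-17, in 4 libraries numbered as biological replicates 2, 1, 3 and 4. The libraries make up a single group, without a treatment or a control. The labels point to a differentiation protocol for CD4+ T cells, the file headers carry a 72 hr time, and the 4 biosamples share 1 donor identifier, with age unknown and sex not recorded. Nothing in the labels says that they came from separate animals or cultures, so p-values measure only the spread between these libraries. The assay is titled total RNA-seq, while the linked library protocol is titled for poly(A)+ RNA.

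The cornified envelope is a protein shell that replaces the plasma membrane of dying keratinocytes, the main cells of the epidermis. Involucrin (Ivl) is laid down first, and transglutaminases then cross-link loricrin (Lor), Sprr and Lce proteins onto it. The S100 genes at both ends of the complex are used far more widely: several are transcribed in lymphocytes and other leukocytes, and S100a8 and S100a9 form the calprotectin of neutrophils. In mouse airway epithelium Sprr2 genes are also known to be induced by interleukin-13 through Stat6.

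Replicate 2 stood apart from the other libraries across all genes and not only in this window. Total counts were 37507204 in replicate 2 and 33123029 to 37746767 in replicates 1, 3 and 4. T cell genes were present throughout: Cd4 stood at 486 TPM (a count divided by gene length and scaled to an equal total for every library) in replicate 2 and 505 ± 15.9 TPM in replicates 1, 3 and 4 (SD, n = 3). Of 10 Th17 genes, replicate 2 was called lower in 5 (Il17a, Il17f, Ccr6, Il23r and Rora) and higher in 1 (Cd3g), and their median log2 difference was -0.33. Il17a, which encodes interleukin-17A, stood at 505 TPM in replicate 2, against 2293 ± 217 TPM in replicates 1, 3 and 4 (SD, n = 3). Over all genes, edgeR's quasi-likelihood test called 10.9% of 17337 higher and 10.2% lower in replicate 2 at an adjusted p under 0.05, and the median log2 difference of all genes was -0.01.

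The promoters of the Sprr genes and Ivl are the sequences on which the members can be compared outside the counts. For Sprr2d, Sprr2h and Sprr1a, the protein-coding Sprr genes with the most counts in replicate 2, for Ivl at the far edge of the run of high rows, and for Sprr3, a gene between them without a count in any library, the 250 bases before the start are given from RefSeq on GRCm38.p6, 5′ to 3′ on the strand of the gene. Capitals mark the AP-1 motif (TGANTCA), the octamer motif (ATTTGCAT) and the TATA box (TATAAA). The Sprr2d window is chr3:92338890-92339139 and that of Sprr2h chr3:92385435-92385684, both on the plus strand. Those of Sprr1a (chr3:92485882-92486131), Ivl (chr3:92573736-92573985) and Sprr3 (chr3:92458721-92458970) lie on the minus strand.
Sprr2d: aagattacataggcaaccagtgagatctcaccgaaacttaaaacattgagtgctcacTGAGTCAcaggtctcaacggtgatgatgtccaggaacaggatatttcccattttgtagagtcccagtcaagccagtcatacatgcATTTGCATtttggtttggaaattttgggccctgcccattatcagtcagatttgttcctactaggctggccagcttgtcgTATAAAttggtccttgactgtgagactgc
Sprr2h: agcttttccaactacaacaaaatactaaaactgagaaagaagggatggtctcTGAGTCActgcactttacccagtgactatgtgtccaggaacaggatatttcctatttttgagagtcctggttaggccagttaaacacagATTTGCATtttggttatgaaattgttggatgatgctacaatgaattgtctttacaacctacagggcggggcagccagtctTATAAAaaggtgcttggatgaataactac
Sprr1a: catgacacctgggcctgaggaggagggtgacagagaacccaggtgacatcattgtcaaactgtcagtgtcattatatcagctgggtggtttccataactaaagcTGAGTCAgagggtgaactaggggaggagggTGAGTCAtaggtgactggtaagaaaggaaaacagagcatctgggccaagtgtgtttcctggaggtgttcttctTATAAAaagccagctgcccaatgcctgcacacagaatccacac
Ivl: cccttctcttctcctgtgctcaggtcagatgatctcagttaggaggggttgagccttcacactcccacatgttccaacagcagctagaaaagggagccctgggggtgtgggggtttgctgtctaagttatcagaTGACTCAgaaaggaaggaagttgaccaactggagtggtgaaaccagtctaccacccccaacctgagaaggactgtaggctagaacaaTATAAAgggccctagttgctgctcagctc
Sprr3: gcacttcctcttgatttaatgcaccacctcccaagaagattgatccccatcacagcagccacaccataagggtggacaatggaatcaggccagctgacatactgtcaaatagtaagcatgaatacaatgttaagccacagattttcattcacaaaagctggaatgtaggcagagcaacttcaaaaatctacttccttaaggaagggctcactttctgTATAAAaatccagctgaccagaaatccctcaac

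The Sprr genes were the members whose counts in replicate 2 lay furthest above the other libraries. They encode small proline-rich proteins that cross-link the cornified envelope. The 17 Sprr rows, at chr3:92215799-92500493, held 10774 counts in replicate 2, against 6, 14 and 7 counts in replicates 1, 3 and 4. Per total count this is a ratio of 1130, with an exact 95% counting interval of 776 to 1715 that covers counting error only. Summed Sprr levels were 1689 TPM in replicate 2 and 1.77 ± 1.04 TPM in replicates 1, 3 and 4 (SD, n = 3). Sprr genes made up 33.2% of the counts of all members in replicate 2 and 0.0372% in the other libraries together. In bulk RNA, more cells that hold these transcripts and more transcript per cell cannot be told apart.

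Within the family 5 rows, Sprr2h, Sprr2d, Sprr2c-ps, Sprr1a and Sprr2g, held 96.5% of the Sprr counts of replicate 2. Sprr2h (chr3:92385685-92387324) had 2735 counts in replicate 2, against 0, 5 and 2 in replicates 1, 3 and 4. Sprr2d (chr3:92339140-92340873) had 2640 counts in replicate 2, against 1, 2 and 0 in replicates 1, 3 and 4. Sprr1a (chr3:92483952-92485895), also known as a gene switched on in regenerating neurons, had 1607 counts in replicate 2, against 1, 1 and 0 in replicates 1, 3 and 4. In all 3 genes replicate 2 was high and each of the others had at most 5 counts. Per length, Sprr2d stood at 339 TPM in replicate 2 and ranked 466 by TPM among all genes there, Sprr2h stood at 318 TPM and Sprr1a at 174 TPM.

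Both Sprr2c-ps and Sprr2g are annotated as pseudogenes. Sprr2c-ps, a processed pseudogene at chr3:92326600-92326900, had 2241 counts in replicate 2, against 3, 6 and 0 in replicates 1, 3 and 4. Its level of 650 TPM in replicate 2 rests on a short annotated length of 301 bases, and it alone made up 38.5% of the summed Sprr TPM there. Sprr2g (chr3:92373915-92375229), a polymorphic pseudogene in the annotation, had 1178 counts in replicate 2, against 1, 0 and 0 in replicates 1, 3 and 4. Without Sprr2c-ps, Sprr2g and the uncounted Sprr2j-ps, the 14 other Sprr rows held 7355 counts in replicate 2 and 17 in the other libraries, a ratio of 1225 (exact 95% counting interval 764 to 2104).

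The next 4 Sprr genes had 14 to 161 counts in replicate 2. Sprr2e (chr3:92352143-92353449) had 161 counts, or 21.7 TPM, in replicate 2, against 0, 0 and 4 counts in replicates 1, 3 and 4. Sprr2f (chr3:92365187-92366442) had 149 counts, or 21.4 TPM, in replicate 2 and none in the other libraries, and was at least 141-fold higher when 3 counts are allowed for the others together. Sprr1b (chr3:92436809-92438789) had 36 counts, or 3.79 TPM, in replicate 2 and Sprr2k (chr3:92432582-92433925) had 14 counts, or 1.92 TPM. Neither had a count in replicates 1, 3 and 4, which put Sprr1b at least 34.0-fold and Sprr2k at least 13.2-fold higher in replicate 2 against the same floor.

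The other Sprr genes had few counts or none. Sprr2a3, Sprr2b and Sprr2i had 2 to 6 counts in replicate 2, against a total of 1 count in replicates 1, 3 and 4. Sprr2a1, Sprr2a2, Sprr2j-ps, Sprr3 and Sprr4 were at 0 in every library. A count of 0 was not informative for Sprr2a1 and Sprr2a2: 96.3% and 96.5% of the 50-base stretches of their transcripts also occur in another gene, and the recorded counting command sets nothing for reads with more than 1 place in the genome. For Sprr2a3 that share was 61.1%. It was 14.1% for Sprr2b, 12.5% for Sprr2i, 10.2% for Sprr2e, under 5% for Sprr2c-ps and Sprr2d, and 0% for Sprr2h, Sprr2g, Sprr2k, Sprr1a, Sprr1b, Sprr3 and Sprr4. The zeros of Sprr3 and Sprr4, and the counts of Sprr2h, Sprr2g and Sprr1a, therefore did not rest on stretches of that length shared with another gene.

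**Figure D1:**
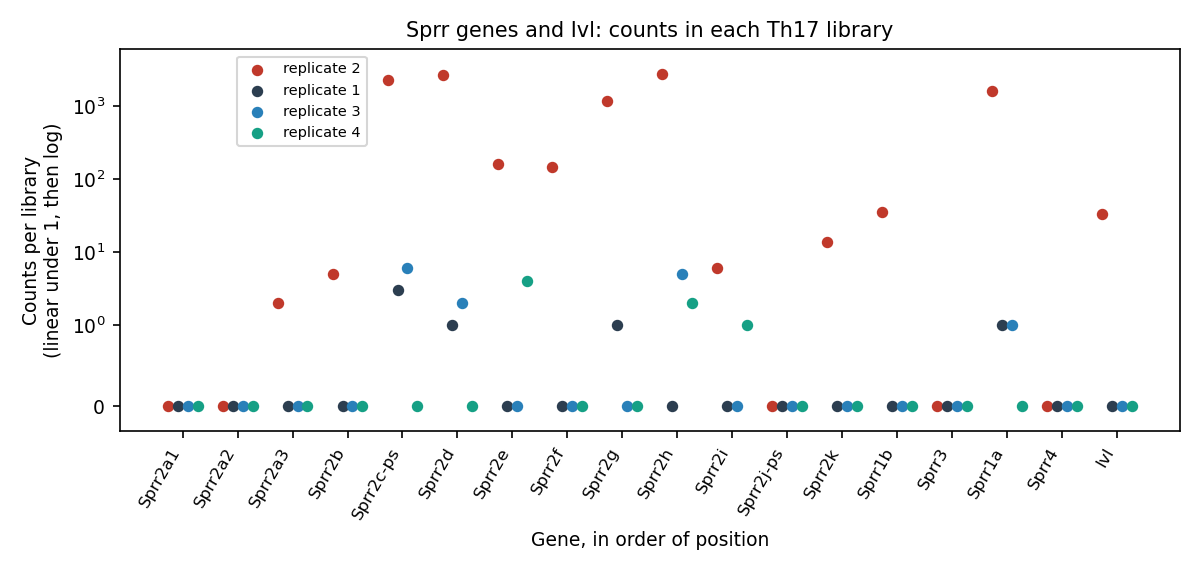
Counts per library (y axis, linear under 1 and logarithmic above) of the 17 Sprr rows and Ivl in order of position (x axis), each point 1 library. Replicate 2 holds 1178 to 2735 counts for Sprr2c-ps, Sprr2d, Sprr2g, Sprr2h and Sprr1a, where replicates 1, 3 and 4 hold 0 to 6, and Sprr2a1, Sprr2a2, Sprr2j-ps, Sprr3 and Sprr4 are at 0 throughout.

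Most of the high rows lay in the Sprr block and its nearest neighbours. Of the 127 members, 87 had no count in any library and 40 had at least 1. Among the 40, the counting interval of replicate 2 over the other libraries lay above 1 for 19, below 1 for 6 and held 1 for 15. Over the 23799 genes with a count, the interval lay above 1 for 19.0% and below 1 for 21.4%. Of the 19 members, 14 lay together between Gm37087 and Ivl, at chr3:92242933-92573735, a stretch of 331 kb with 23 rows. Inside it 6 rows had no count in replicate 2: Gm37428, Sprr2j-ps, Sprr3, Gm37377, Sprr4 and 2310046K23Rik. The stretch was thus not continuous, since Sprr3 and Sprr4 lie on either side of Sprr1a. Its edge at Gm37087 is uncertain, since the zeros of Sprr2a1 and Sprr2a2 there were not informative. The members above 1 outside the stretch were S100a13, S100a10, Lor, Lce1a1 and Tchh. Of these, Lor, Lce1a1 and Tchh had only 3, 3 and 6 counts in replicate 2.

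Ivl, which encodes the involucrin scaffold of the envelope, was the last row of the stretch. At chr3:92570902-92573735 it had 33 counts, or 1.5 TPM, in replicate 2 and none in the other libraries, at least 31.1-fold higher against the floor of 3 counts. At the other edge, Gm37087 and Gm37752, unclassified transcripts on the strand opposite to the Sprr2 genes, had 5 and 6 counts in replicate 2 and none elsewhere. They share 96.9% of their 50-base stretches with each other. Gm9774, a predicted protein-coding gene between Sprr2i and Sprr2k, did not follow its neighbours. It had 22 counts in replicate 2, against 41, 39 and 50 in replicates 1, 3 and 4.

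On both sides of the stretch from Gm37087 to Ivl the barrier genes were at or near 0. The 21 Lce rows at chr3:92620081-93019060, genes of the late cornified envelope, held 3 counts in replicate 2, all of Lce1a1, and none in replicates 1, 3 and 4. Of the 7 S100-fused genes, among them filaggrin (Flg), only Tchh had counts, 6 in replicate 2 and 1 in replicates 1, 3 and 4 together. Before the Sprr block, Lor and Lelp1 had 3 and 1 counts in replicate 2 and none in the other libraries, while Prr9, Pglyrp3 and Pglyrp4 had none in any. Smcp and Kprp, which lie after Ivl, also had none in any library. A count of 0 in replicate 2 allows up to 3 counts, or 0.0800 CPM (a count scaled to the library's total counts). The other envelope genes together held 37 counts in replicate 2, 33 of them of Ivl, against 0 in replicates 1, 3 and 4, at least 34.9-fold more against the floor of 3 counts.

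**Figure D2:**
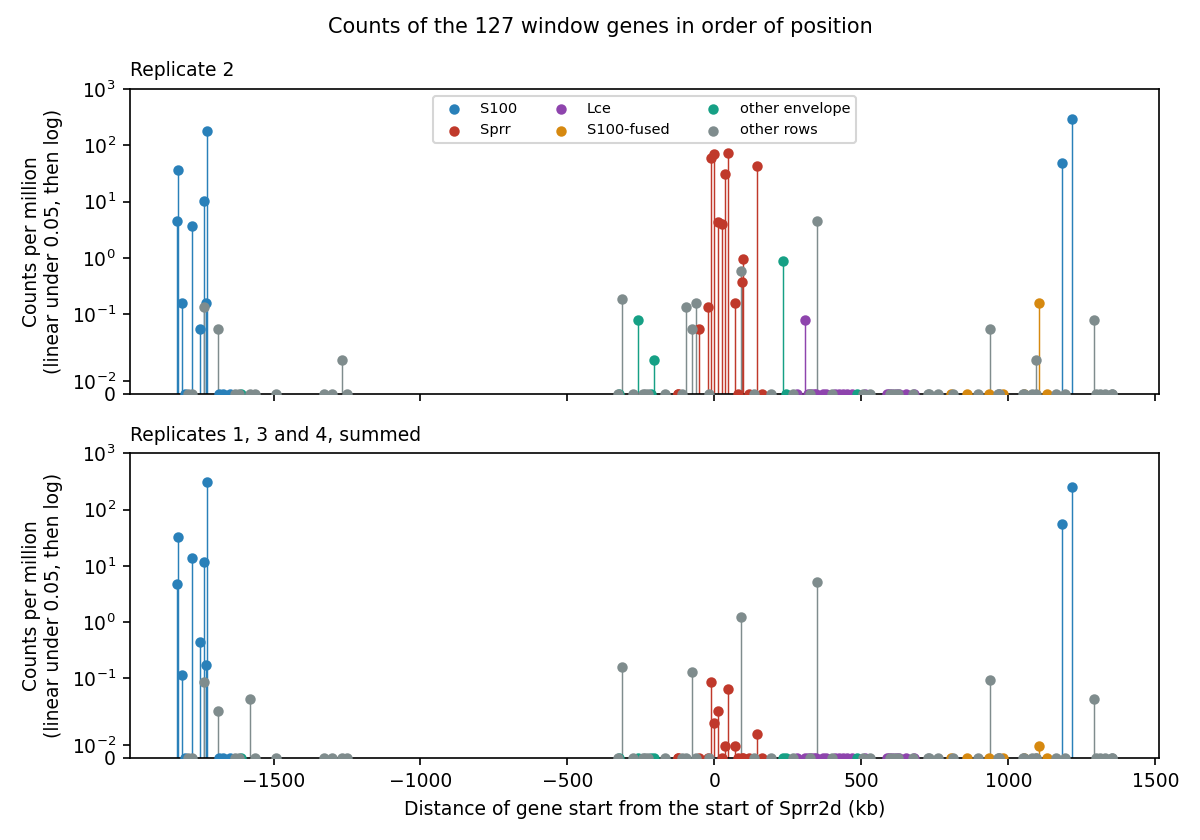
CPM (y axes, linear under 0.05 and logarithmic above) of the 127 members by distance of the gene start from that of Sprr2d (x axis, kb), for replicate 2 (upper) and replicates 1, 3 and 4 summed (lower). The Sprr points near 0 kb are high in replicate 2 only, the Lce and S100-fused points to their right lie at or near 0 in both, and the S100 points at both ends are high in both.

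At its outer sides the window bordered on genes without such a difference. Chtop (chr3:90498956-90509498), a chromatin and mRNA export factor and the nearest protein-coding gene before the window with a mean of at least 1 TPM, stood at 131 TPM in replicate 2 and 140 ± 2.10 TPM in replicates 1, 3 and 4 (SD, n = 3). Its fitted log2 difference was -0.03 ± 0.05 (SE). Them4 (chr3:94310089-94332540), a mitochondrial thioesterase and the nearest such gene after it, stood at 8.51 TPM in replicate 2 and 8.53 ± 0.389 TPM in replicates 1, 3 and 4, a log2 difference of 0.06 ± 0.12. Of the 1.5 Mb before the window, 60 of 88 rows could be tested, with 10 called higher and 4 lower in replicate 2. Of the 1.5 Mb after it, 36 of 94 could be tested, with 1 higher and 4 lower. Over all genes 10.9% were called higher and 10.2% lower. The highest fitted difference in either flank was 1.70, for Riiad1, with 15 counts in replicate 2, against 6, 2 and 5 in replicates 1, 3 and 4, and it did not pass the test. Among the flank genes called lower was Selenbp1, a selenium-binding protein gene, with 51 counts in replicate 2, against 241, 275 and 324 in replicates 1, 3 and 4.

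**Figure D3:**
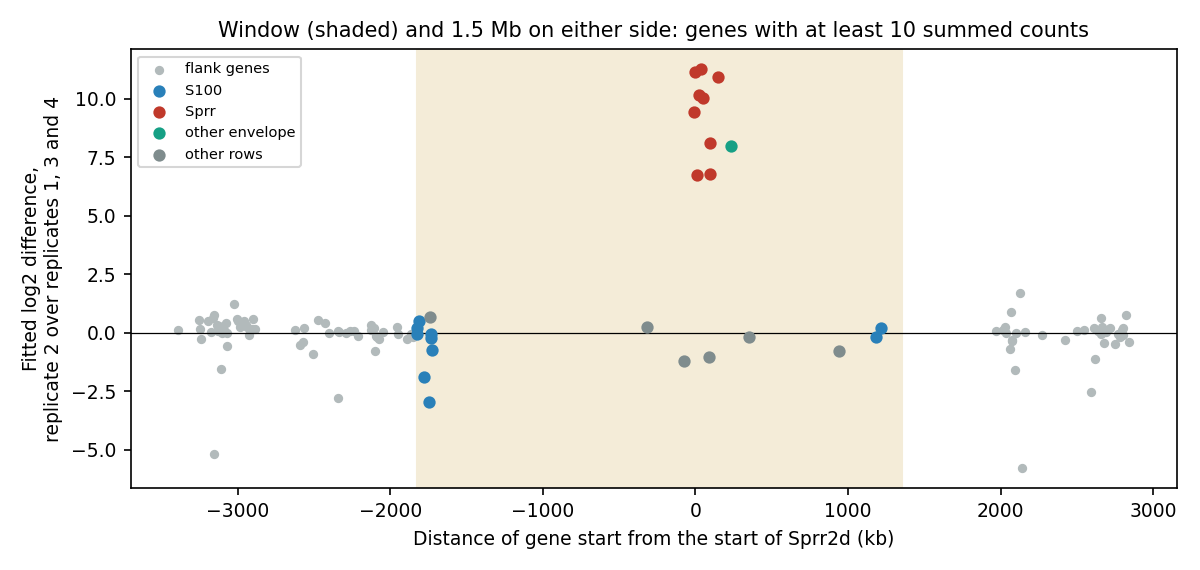
Fitted log2 difference of replicate 2 over replicates 1, 3 and 4 (y axis) by distance of the gene start from that of Sprr2d (x axis, kb), for tested genes of the window (shaded) and of 1.5 Mb on either side. The Sprr genes and Ivl lie above 6 on the log2 scale, all tested flank genes at or below 1.70, and for members with no count in replicates 1, 3 and 4 the plotted value depends on the fitting prior and is not a measured fold.

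Of the 26 members with at least 10 counts, replicate 2 was called higher in 11 and lower in 3, beside 10.9% and 10.2% of all genes, and nothing is read from these counts because this contrast chose the window. Of the 26, 11 passed the count filter only through the counts of replicate 2: the 9 Sprr rows, Ivl and Gm42674. Those without a count elsewhere, Sprr2f, Sprr2k, Sprr1b and Ivl, had to be high there to pass. Those called higher were 9 Sprr rows, Ivl and S100a10, and those called lower were S100a3, S100a2 and S100a6. In TPM, replicate 2 lay above all other libraries for 13 of the 26 and below all of them for 7, against 28.2% and 43.2% of all genes tested.

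The S100 family was the part of the complex transcribed in all 4 libraries. Its summed level was 1772 TPM in replicate 2 and 2075 ± 55.2 TPM in replicates 1, 3 and 4 (SD, n = 3), and its summed counts per total count gave a ratio of 0.843 (exact 95% counting interval 0.830 to 0.856). The lower sum rested on S100a6: without it, a choice made after its values were seen, the other 13 genes summed to 1347 TPM in replicate 2 and 1328 ± 19.7 TPM in replicates 1, 3 and 4. Of 14 genes, 10 were counted, and S100a7a, S100a8, S100a9 and S100a16 were at 0 in every library. Among the 10, replicate 2 was called higher in 1 and lower in 3, beside 10.9% and 10.2% of all genes. Their median log2 difference was -0.12, beside -0.01 for all genes.

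S100a10, a partner of annexin A2 at the plasma membrane, was the highest member in replicate 2 by TPM. At chr3:93555080-93564643 it had 780 TPM in replicate 2, against 701, 709 and 692 TPM in replicates 1, 3 and 4, and replicate 2 lay above all others. Its log2 difference was 0.22 ± 0.05 (SE), a small one beside those of the Sprr rows. S100a13 (chr3:90514435-90524581), which takes part in the export of fibroblast growth factor 1, had 169 TPM in replicate 2, against 146, 158 and 154 TPM in replicates 1, 3 and 4. Its log2 difference of 0.21 ± 0.09 was not called.

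S100a6, or calcyclin, a calcium-binding protein of dividing cells, was called lower. At chr3:90612882-90624181 it had 425 TPM in replicate 2, against 748, 701 and 793 TPM in replicates 1, 3 and 4, a log2 difference of -0.75 ± 0.06, with replicate 2 below all others. S100a3, a protein of the hair cuticle, at chr3:90560578-90602702, had 2.14 TPM in replicate 2, against 8.26, 7.70 and 8.73 TPM in replicates 1, 3 and 4, a log2 difference of -1.88 ± 0.14. S100a2 (chr3:90590247-90591508) lies within the span of S100a3 and had 2 counts in replicate 2, against 11, 17 and 19 in replicates 1, 3 and 4. Its log2 difference was -2.94 ± 0.97, and the call was lost without replicate 3 (-2.88) or without replicate 4 (-2.83).

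The other S100 genes were not called, although replicate 2 lay below all other libraries for S100a11 and S100a4. S100a11 (chr3:93520488-93526287), a partner of annexin A1, had 316 TPM in replicate 2, against 360.5, 365 and 382 TPM in replicates 1, 3 and 4, a log2 difference of -0.16 ± 0.07. S100a4 (chr3:90603771-90606045), which binds non-muscle myosin, had 56.2 TPM in replicate 2, against 62.6, 63.9 and 75.9 TPM in replicates 1, 3 and 4, a log2 difference of -0.20 ± 0.14. S100a1 (chr3:90511034-90514392), a calcium sensor of muscle, had 21.1 TPM in replicate 2, against 23.3, 21.0 and 25.1 TPM in replicates 1, 3 and 4, with overlapping groups. S100a5 (chr3:90608523-90611780) had 6 counts in replicate 2, against 5, 5 and 8 in replicates 1, 3 and 4. S100a14 (chr3:90526856-90528837) also had 6 counts in replicate 2, against 4, 2 and 6 in replicates 1, 3 and 4. The counts of S100a4 and S100a11 are uncertain, since 47.4% of the 50-base stretches of S100a4 occur also in another gene, Gm42674 overlapping 51.7% of its exons, and 41.1% of those of S100a11 occur in pseudogenes such as Gm12854.

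**Figure D4:**
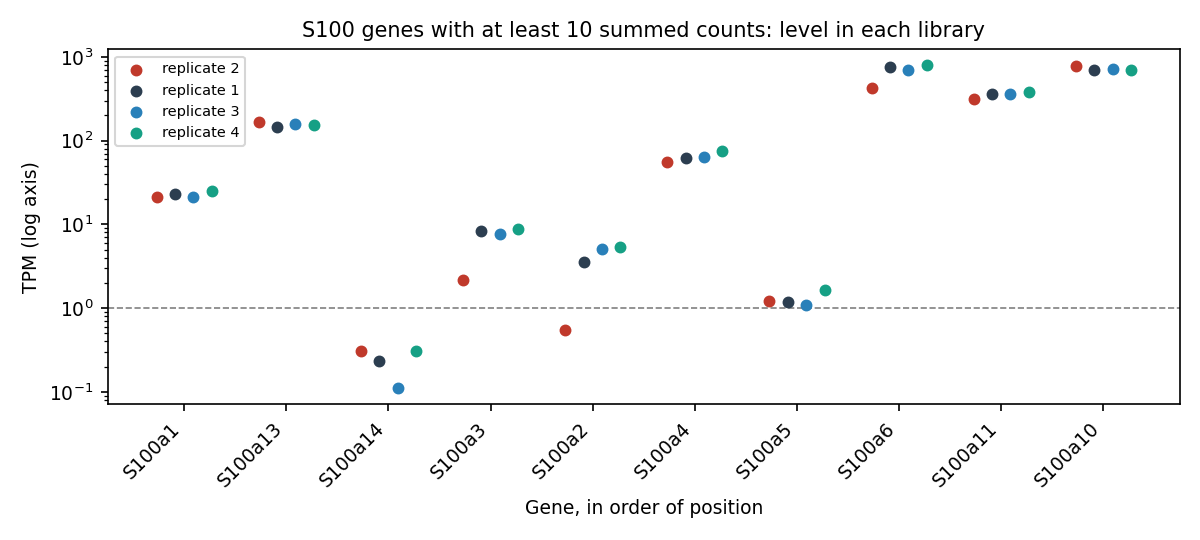
Level in TPM (y axis, logarithmic) of the 10 counted S100 genes in order of position (x axis), each point 1 library, with a dashed line at 1 TPM. Replicate 2 lies below the other libraries for S100a3, S100a2 and S100a6, which were called, and for S100a4 and S100a11, which were not, and above them for S100a10 (780 TPM, called) and S100a13 (not called), and S100a5 and S100a14 lie near or under 1 TPM.

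Levels in replicates 1, 3 and 4 alone were tested against 1 TPM with an edgeR quasi-likelihood fit adjusted over 16610 genes. The Sprr rows, whose low values there were part of the choice of window, had too few counts to enter. Of the 15 members with at least 10 counts in these libraries, 10 lay above 1 TPM, 2 below and 3 were not called, while 74.1% of all genes lay above and 14.5% below. The 10 were 8 S100 genes, Gm9774 and the processed pseudogene Gm4202. S100a6 averaged 747 ± 45.8 TPM (SD, n = 3, edgeR adjusted p = 4.80e-26), S100a10 700.5 ± 8.80 TPM (adjusted p = 7.99e-27) and S100a11 369 ± 11.4 TPM (adjusted p = 3.67e-23). The order went on with S100a13 at 153 ± 6.46 TPM, S100a4 at 67.4 ± 7.32 TPM, S100a1 at 23.1 ± 2.06 TPM, S100a3 at 8.23 ± 0.513 TPM and S100a2 at 4.68 ± 1.01 TPM. S100a6 and S100a10 are neighbours in that order whose values overlap, from 701 to 793 TPM and from 692 to 709 TPM, while each of the others lay apart from the next.

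S100a14, an S100 gene of epithelia, lay below 1 TPM at 0.218 ± 0.101 TPM (SD, n = 3, edgeR adjusted p = 0.00470), as did the pseudogene Gm5851 (adjusted p = 0.0401). S100a5 at 1.31 ± 0.302 TPM was not called (edgeR adjusted p = 0.456), and neither were Mif-ps3 (adjusted p = 0.254) and Rplp0-ps1 (adjusted p = 0.0545). Gm4202, at chr3:92689426-92690158 inside the Lce block, averaged 23.6 ± 3.21 TPM in these libraries and stood at 20.02 TPM in replicate 2. The nearest Lce genes on both sides of it were at 0 throughout. Gm9774 averaged 2.95 ± 0.272 TPM in these libraries and stood at 1.38 TPM in replicate 2.

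Replicates 1, 3 and 4 did not differ among themselves beyond the test's threshold in any of the 15 members. Replicate 1 against replicates 3 and 4, replicate 3 against replicates 1 and 4, and replicate 4 against replicates 1 and 3 each gave 0 calls by edgeR and 0 by DESeq2, with 0, 1 and 0 members at an unadjusted edgeR p under 0.05. The one member was S100a6, with a log2 difference of -0.13 ± 0.06 in replicate 3 (edgeR adjusted p = 0.784). Across all genes 0.295% were called higher and 0.313% lower in replicate 1, 0.512% and 0.102% in replicate 3, and 0.0722% and 0.157% in replicate 4. For the 7 S100 genes with at least 100 counts in these libraries, the largest of these differences was 0.25 on the log2 scale, for S100a4 in replicate 4.

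Apart from their counts, part of the Sprr genes shared promoter sequence. RefSeq held a promoter, from 250 bases before to 50 after the start, for 60 of the 127 members, 14 of them Sprr rows; Sprr2c-ps, Sprr2g and Sprr2j-ps were not matched. Motifs were searched on both strands. Grouping promoters by their call in replicate 2 uses the contrast that chose the window, so the motif counts by group are a description. Any part of these motifs in the Sprr counts was not tested. All 8 promoters of the protein-coding Sprr genes and Ivl called higher in replicate 2 held the AP-1 motif TGANTCA, bound by Jun and Fos proteins, and the TATA box TATAAA. Among all 32851 promoters 7.81% held the AP-1 motif and 13.6% the TATA box. The octamer ATTTGCAT, a motif of POU factors, stood in the 5 Sprr2 promoters of that group and in 1.74% of all promoters. None of the 8 held the STAT motif TTCNNNGAA (8.30% of all) or the STAT6 motif, which has 1 base more between its ends (6.95% of all).

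Among the Sprr2 genes called higher that had a promoter, the motifs stood at like places. In Sprr2d and Sprr2e the AP-1 motif began 193 bases before the start, the octamer 108 bases before it and the TATA box 29 bases before it. In Sprr2h they began 198, 109 and 29 bases before the start. In the others the places differed: Sprr1a held 2 AP-1 motifs, 146 and 116 bases before the start, and Sprr1b and Ivl held 1 each, 111 and 116 bases before it. None of Sprr1a, Sprr1b and Ivl held an octamer, and the TATA box of Sprr1a began 43 bases before the start. Several Sprr2 promoters share sequence and are not independent. Sprr2d and Sprr2e were identical at 88.7% of aligned bases, Sprr2h and Sprr2k at 81.8%, and Sprr2d and Sprr2h at 65.8%. Some other pairs were less alike: Sprr1a and Sprr1b at 52.6%, Sprr1a and Sprr2d at 46.6%, Sprr2a1 and Sprr2d at 46.7%, and Ivl and Sprr1a at 46.9%.

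The 7 other Sprr promoters were mixed. Sprr2b and Sprr2i, with 5 and 6 counts in replicate 2, held the AP-1 motif, the octamer and the TATA box within 2 bases of their places in Sprr2d. Sprr2a1, Sprr2a2, Sprr2a3, Sprr3 and Sprr4 held no AP-1 motif and no octamer, and Sprr3 held a TATA box 33 bases before the start. The STAT6 motif stood in Sprr2a1, Sprr2a2 and Sprr2a3. By family the AP-1 motif was in 9 of 14 Sprr promoters, 5 of 7 S100-fused, 3 of 5 other envelope, 2 of 15 S100 and 0 of 20 Lce promoters. The 5 S100-fused genes with the motif were at 0 in every library, and Tchh, the counted one, did not hold it. The KLF motif CCACCC was in 5 and the ETS motif AGGAAG in 7 of the 14 Sprr promoters, beside 31.5% and 35.4% of all promoters. A match is a string of letters and not a shown binding site.

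**Figure D5:**
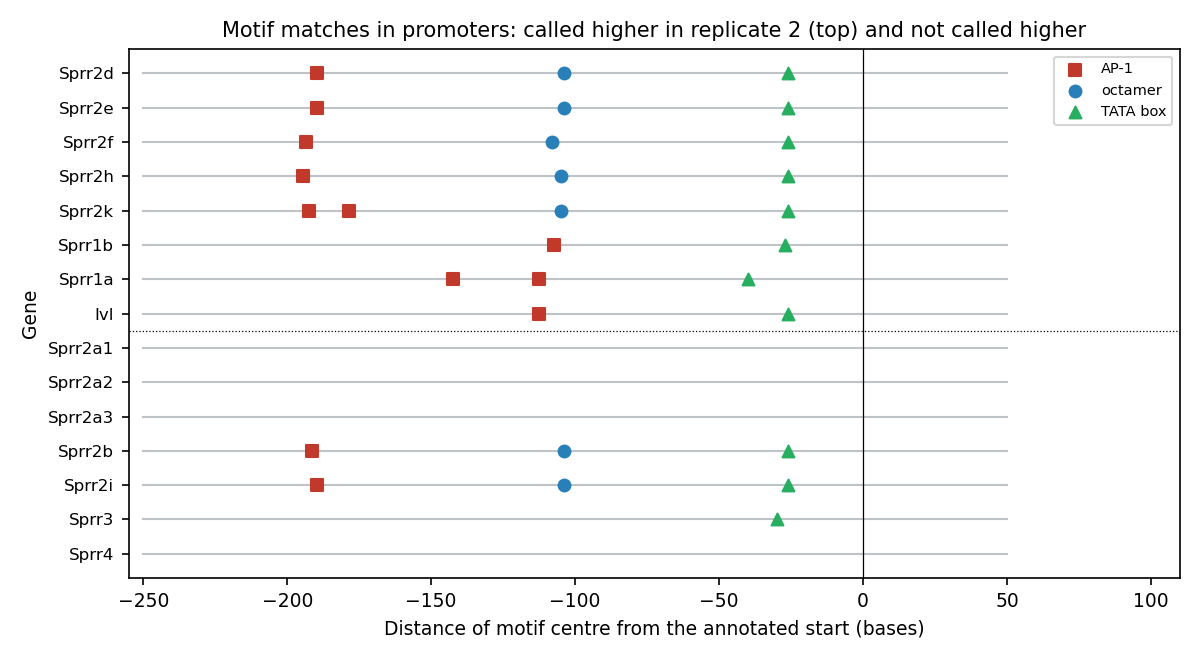
Places of the AP-1, octamer and TATA box motifs (x axis, distance of the motif centre from the annotated start in bases) in 15 promoters (y axis), with the 8 genes called higher in replicate 2 above the dotted line and the 7 other Sprr genes under it. All 8 upper promoters and 2 of the 7 lower ones, Sprr2b and Sprr2i, hold an AP-1 motif. The groups follow the contrast that chose the window and are a description.

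The transcripts of the family were alike to unequal degrees. Sprr2d and Sprr2e transcripts were identical at 79.1% of aligned bases and those of Sprr2f and Sprr2i at 79.5%, Sprr1a and Sprr1b at 65.8%, and Sprr1a and Sprr2d at 49.0%. Counts in replicate 2 were unlike in some pairs: Sprr2d had 2640 counts and Sprr2e 161, Sprr1a 1607 and Sprr1b 36. In other pairs they were alike. Sprr2d and Sprr2h, identical at 70.6% of aligned bases, had 2640 and 2735 counts there. Sprr2e and Sprr2f, identical at 73.1%, had 161 and 149.

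Other genes of the envelope, outside chromosome 3, summed to 7.28 TPM in replicate 2 and 7.85 to 9.43 TPM in replicates 1, 3 and 4. Of 20 such genes, 7 could be tested, with 1 call and a median log2 difference of 0.10. Across all genes 10.9% were called higher and 10.2% lower. Dsp, which encodes desmoplakin, was called lower, at 1.67 TPM in replicate 2 and 3.44 ± 0.791 TPM in replicates 1, 3 and 4 (SD, n = 3). Transglutaminase Tgm1, which cross-links the envelope, had 12 counts in replicate 2, against 26, 25 and 18 in replicates 1, 3 and 4. Krt10 of the upper epidermis had 88 counts in replicate 2, against 73, 79 and 66 in replicates 1, 3 and 4. Evpl, which encodes envoplakin, stood at 0.479 TPM in replicate 2 and 0.464 ± 0.169 TPM in the others, and Cst6 at 0.729 TPM in replicate 2 and 0.432 ± 0.214 TPM in the others. Tgm5, Dsc1, Casp14, Krt2, Klk5 and Spink5 were at 0 in every library.

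The summed level of epithelial markers in replicate 2 lay within the range of the other libraries, but most of this sum was 1 gene, Sfn. The sum therefore says little of the other markers. The 16 keratinocyte and epithelial markers summed to 82.4 TPM in replicate 2 and 71.8 to 87.6 TPM in replicates 1, 3 and 4. Of them 7 were tested, with 1 called higher and 2 lower, beside 10.9% and 10.2% of all genes. Their median log2 difference was -0.98. Krt14, Krt6a, Krt8, Cdh1 and Dsg3, defining genes of keratinocytes and other epithelia, were at 0 in every library. The other untested markers had few counts. Krt5 had 2 counts in replicate 2 and none in the others, and Krt15 had 1 in replicate 2, against 1, 0 and 2. Krt19 and Esrp1 had 0 in replicate 2, against 0, 0 and 2 and 1, 2 and 1 in replicates 1, 3 and 4. Sfn, a 14-3-3 protein that made up most of the sum, was the 1 called higher, at 78.0 TPM in replicate 2 and 62.5 ± 8.81 TPM in replicates 1, 3 and 4 (SD, n = 3). Krt17 and Krt16, keratins of stressed epidermis, were called lower, with 32 and 6 counts in replicate 2, against 120 to 191 and 47 to 70 in replicates 1, 3 and 4. Epcam had 17 counts in replicate 2, against 30, 32 and 35 in replicates 1, 3 and 4, and Cldn7 had 6 in replicate 2, against 17, 18 and 19. Other markers went the other way and were not called. Cldn4 had 13 counts in replicate 2, against 2, 3 and 8 in replicates 1, 3 and 4, and Krt18 had 8, against 1, 5 and 2.

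Markers of myeloid cells did not share a direction. The 12 neutrophil markers summed to 0.488 TPM in replicate 2 and 0.499 to 0.603 TPM in replicates 1, 3 and 4, with 2 tested, Ly6g and Prtn3, neither of them called, and the granule genes Elane and Camp at 0. The 14 macrophage and dendritic cell markers summed to 122 TPM in replicate 2 and 179 to 211 TPM in the other libraries, with 11 tested, 2 of them called, both lower, and a median log2 difference of 0.41. Of the 11, 6 had a fitted log2 difference above 0 and 5 below 0. Over all genes 10.9% were called higher and 10.2% lower. Most of the sum was Cd74, the invariant chain, at 94.1 TPM in replicate 2 and 167 ± 15.4 TPM in replicates 1, 3 and 4. Adgre1 was the other one called lower, at 5.73 TPM in replicate 2 and 8.70 ± 0.246 TPM in the others, and Lyz2 and Cd207 were at 0 in every library. Cd68, Cd14 and Zbtb46 were not called, with log2 differences of 0.55 ± 0.19, 0.65 ± 0.32 and 0.41 ± 0.19 (SE). The part of these markers, and of the lower Th17 genes, in the Sprr values was not tested.

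Regulators of epidermal differentiation split in direction. The 14 transcription factors summed to 90.2 TPM in replicate 2 and 87.7 to 93.3 TPM in replicates 1, 3 and 4. Of them 12 were tested, with 3 called higher and 1 lower in replicate 2, beside 10.9% and 10.2% of all genes. Their median log2 difference was -0.02. Zfp750, a regulator of terminal differentiation of keratinocytes, was called higher, at 17.1 TPM in replicate 2 and 10.7 ± 0.432 TPM in replicates 1, 3 and 4 (SD, n = 3). Cebpa, also called higher, had 14 counts in replicate 2 and none in the other libraries. Klf4, a factor of the skin barrier, was called lower, at 6.02 TPM in replicate 2 and 10.2 ± 0.656 TPM in replicates 1, 3 and 4. Arnt, Cebpb and Gata3 were not called, with log2 differences of -0.03 ± 0.05, -0.33 ± 0.17 and 0.22 ± 0.11 (SE).

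Cytokines and receptors known to act on envelope genes gave 2 genes called higher and 5 lower of 13 tested, beside 10.9% and 10.2% of all genes. Their median log2 difference was 0.08. Il13, whose product induces Sprr2 genes in mouse airway, stood at 461 TPM in replicate 2 and 455 ± 19.3 TPM in replicates 1, 3 and 4 (SD, n = 3). Il22, a cytokine that acts on keratinocytes, was called lower, at 183 TPM in replicate 2 and 354 ± 43.8 TPM in the others, as were Il17a and Il17f (578 TPM in replicate 2 and 2761 ± 145 TPM in the others). The receptor gene Il13ra1 had 8 counts in replicate 2, against 53, 43 and 54 in replicates 1, 3 and 4, and was called lower. Stat6 was called lower by a small amount, at 200.3 TPM in replicate 2 and 236 ± 1.74 TPM in replicates 1, 3 and 4. Osmr and Il17ra were called higher, at 2.48 and 34.7 TPM in replicate 2 and 1.57 ± 0.258 and 28.0 ± 1.09 TPM in replicates 1, 3 and 4. Stat3 was not called, with a log2 difference of -0.02 ± 0.05 (SE).

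Partners of S100 proteins moved in both directions. All 12 were tested, with 2 called higher and 3 lower, beside 10.9% and 10.2% of all genes. Their median log2 difference was 0.02, and they summed to 2453 TPM in replicate 2 and 2747 to 2802 TPM in replicates 1, 3 and 4. Anxa2, the annexin that binds S100a10, was called lower, at 450.1 TPM in replicate 2 and 659 ± 25.2 TPM in replicates 1, 3 and 4 (SD, n = 3), while S100a10 itself was called higher. Anxa5 was also called lower, at 236 TPM in replicate 2 and 284 ± 10.5 TPM in the others, as was Plscr1, at 289 TPM in replicate 2 and 422 ± 25.3 TPM in the others. Anxa6 and Anxa11 were called higher, at 560.5 and 45.3 TPM in replicate 2 and 481 ± 18.8 and 38.6 ± 2.20 TPM in replicates 1, 3 and 4. Cacybp, which binds S100a6, and Ppp5c were not called. Of the S100 genes outside chromosome 3, S100b, S100g and S100z were at 0 in every library, and the S100-binding protein gene S100pbp stood at 27.3 TPM in replicate 2 and 27.8 ± 1.19 TPM in replicates 1, 3 and 4.

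Few genes outside the window had a pattern like that of the Sprr rows. The window was chosen for this pattern in replicate 2, so the rank of the Sprr rows themselves is a description only. Among 10655 genes with at least 100 counts in replicate 2, ranked by the ratio of replicate 2 over the other libraries per total count, 8 exceeded 100-fold and 7 of these were Sprr rows. The other one was Pappa2, a protease of insulin-like growth factor binding proteins, with 353 counts in replicate 2, against 0, 5 and 3 in replicates 1, 3 and 4, a ratio of 125 (exact 95% counting interval 62.7 to 292). The interferon-induced genes Oas1a and Usp18 had ratios of 27.8 and 13.8, and Arnt2, Spib, Flt3, Gm42748, Eomes and Pdpn had ratios of 20.2, 13.04, 11.8, 11.6, 8.42 and 7.22.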

How the data were processed

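RNA-seq counts of 4 Th17 libraries were used. Per the file headers, the authors used featureCounts 1.4.6-p4 (strand option 2, GENCODE M13) to count fragments; the deposited values are raw counts, with each gene's summed exon length in bases. The build is mm10 per the labels, and for the aligner no name is given in the sources used here. Deposited counts were used as they stand, and TPM was computed here. Symbols came from GENCODE vM21 and matched 50376 of 50600 identifiers; 224 had none.

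Genes with at least 10 summed counts were fitted with edgeR 4.0.16 in R 4.3.3 (TMM, quasi-likelihood test, Benjamini-Hochberg over all genes, threshold 0.05), with DESeq2 1.42.0 as an alternative. The SE of a log2 difference is an approximation, its absolute value over the square root of the test's F statistic. Levels were tested against 1 TPM in replicates 1, 3 and 4 with an intercept-only edgeR fit. Counting intervals are exact (95%), and the floor is 3 counts; both cover counting error only, and molecular identifiers are not mentioned in the sources used here. The fits were tested on simulated data. Promoters were from RefSeq, scanned with Python 3.11.15; transcript and promoter identity came from Biopython 1.88 alignments. A description of Sprr proteins was planned, and transcripts were described in its place because a protein table was not used here.

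The members, gene lists, motifs and tests were chosen with earlier results of these data known. Named were all S100, S100-fused, Lce, Sprr and other envelope members with a count (with full values from 10 counts on), other protein-coding rows of the window with a mean of at least 5 TPM (there was none), and up to 5 members of each list by mean TPM plus those called in replicate 2. The nearest protein-coding gene of at least 1 TPM on each side and the 10 genes outside the window with the highest ratio were also named, except that results of 2 particular genes are not reported here; counts still include them. Other names (such as Gm9774, Gm4202 and Riiad1) were chosen after their values were seen.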

Additional observations from a re-analysis of the deposited data

Results flagged for a closer look

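In 12 results 1 library lay so far from the other 3 that its gap to the nearest, over the whole range of the 4 values in TPM, passed Dixon's critical value at the 95% level, which chance passes in about 1 of 20 groups. Of the 20 members with full values, 11 had such a gap, beside 10.5% of the 17337 genes tested, and since the window was chosen for replicate 2 nothing is read from that share. For the Sprr genes and Ivl the library was replicate 2, as the highest. Sprr2f, Sprr2k, Sprr1b and Ivl were at 0 in replicates 1, 3 and 4, which gives a gap of 1.0. The gap was 0.999 for Sprr2d, Sprr2g and Sprr1a, 0.998 for Sprr2h, 0.997 for Sprr2c-ps and 0.975 for Sprr2e, and 0.999 for the summed Sprr level. For S100a3 the library was again replicate 2, here as the lowest, at 2.14 TPM beside 7.70 to 8.73 TPM in replicates 1, 3 and 4, a gap of 0.844.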

How the results depend on the processing

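Of the main results under the alternatives tried, 54 values kept their direction and side of the threshold and 8 did not; no value reversed. Members called higher in replicate 2 were 11, and 7 with DESeq2, where Ivl, Sprr1b, Sprr2k and S100a2 had no adjusted p and Sprr2e missed the threshold; the 9 members called by DESeq2 in either direction were all among the 14 called by edgeR. Members above 1 TPM were 10, and 16 when replicate 2 was added. Members below 1 TPM were 2, against 9 with no filter on counts, 0 with at least 100 counts, where S100a14 and Gm5851 were not tested, and 0 to 1 with 1 of the 3 libraries left out. The summed S100 ratio was 0.843, and 0.858 with TMM-scaled library sizes. The summed Sprr ratio ran from 957 (mean TPM) to 1566 (without replicate 3). Calls over all genes differed by more than 1.5 times in DESeq2: 7 higher and 6 lower against edgeR's 49 and 52 for replicate 1, 15 and 0 against 85 and 17 for replicate 3, and 6 and 0 against 12 and 26 for replicate 4. With at least 100 counts, edgeR gave 18 and 7 for replicate 3 and 6 and 2 for replicate 4, and with no filter 23 and 47 for replicate 4. Leaving a library out of these 3 comparisons was not run, since 1 library against 1 has no residual degrees of freedom. No paired analysis was possible because all libraries form 1 group. Depth limits members with few counts: 14 of the 40 counted members had 1 to 9 counts in all. Except where a reason is given here, the cause was not tested.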
